A study of Sus scrofa with 9 samples.

Results

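Fatty acids enter muscle from the blood and are held, carried and activated before they are burned or stored. CD36 and the transport proteins of the SLC27 family bring them across the plasma membrane, the small fatty acid binding proteins (FABPs) carry them through the cytosol, and the long-chain acyl-CoA synthetases (ACSLs) join them to coenzyme A, which traps them in the cell. In skeletal muscle FABP3 is the main binding protein of the fibres, whereas FABP4 is best known from fat cells and capillary endothelium.

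The genes described here are 9 of that route: CD36, SLC27A1 and SLC27A4 for uptake, FABP3, FABP4 and FABP5 for binding, and ACSL1, ACSL3 and ACSL5 for activation. Members were the array probes whose accession, without its version, belongs to one of these symbols in a RefSeq gene table. That gave 28 of 43603 probes and 8 of 3196 named genes. SLC27A4, a transport protein with synthetase activity, had 0 probes by this rule and is not analysed here. FABP4 had 7 probes, CD36 and FABP5 had 4 each, FABP3, SLC27A1, ACSL1 and ACSL3 had 3 each, and ACSL5 had 1. All 28 were tested and 25 were well above background on all 9 arrays. The exceptions were the dimmest FABP4 probe and the 2 dimmer SLC27A1 probes.

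Bama minipigs, a small pig breed, were 6 months old when they started a diet that lasted 23 months. The high-fat high-sucrose group (HFHSD, 6 animals) ate 53% basal feed, 37% sucrose and 10% lard, and the control diet group (CD, 3 animals here) ate standard chow. The labels give both 3 and 6 as the number of CD animals, and 3 CD arrays were analysed. Both groups were sexually intact animals of both sexes, kept in single pens on restricted feed and fasted overnight before dissection, and which animals were male or female is not in the labels. Total RNA of longissimus dorsi, a back muscle, was hybridised to 1-colour Agilent arrays, 1 array per animal.

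A level below is the log2 of the processed spot intensity minus the array's 75th percentile, so 0 is that percentile and 1 unit is a doubling. A probe's level is not comparable with that of another probe. A difference is the HFHSD mean minus the CD mean, with its standard error (SE) from a limma fit over all tested probes, and "passed" means an adjusted p under 0.05.

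Some facts of the series touch all results. On array CD 1 36.8% of probes were well above background, against 51.2% to 68.9% on the 8 others, though its median correlation with the other arrays was 0.963, within the range of 0.948 to 0.966. HFHSD 5 and HFHSD 6 lay on a slide of their own (slide 1), scanned on a different day. HFHSD 1, HFHSD 3, HFHSD 4 and CD 1 shared slide 2, and HFHSD 2, CD 2 and CD 3 shared slide 3. Any difference within slide 2 thus rests on CD 1 alone for CD, and within slide 3 on HFHSD 2 alone for HFHSD. All 14 measured muscle fibre markers were well above background on every array, with a summed level, each as a multiple of the 75th percentile, of 9822 to 13730 in HFHSD and 12330 to 15920 in CD. Among them were ACTA1, the actin of skeletal muscle, CKM, the muscle creatine kinase, and TNNC2, a fast troponin. Of the 14 markers 3 had a higher mean in HFHSD and 11 a lower mean, with a median difference of -0.13, and 0 passed. By their brightest probe 1109 of all 2613 named genes were higher and 1504 lower. Of all 27922 tested probes 344 passed, of which 194 were higher and 150 lower, and the balance depended on the setting. It was 63 higher and 25 lower with normexp background correction and percentile scaling, 408 higher and 448 lower with normexp and quantile normalisation, and 281 higher and 455 lower among probes well above background on all arrays.

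No probe of these genes passed: 0 of 28, where 1.23% of all tested probes did. FABP5 was lower in every HFHSD animal than in every CD animal at all 4 of its probes, at 0.644-fold by its brightest probe, and ACSL3 was higher on average at all 3 of its probes (1.84-fold), but both differences missed the threshold. FABP4 was higher on average at all 7 probes. FABP3 varied 14.4-fold among the HFHSD animals, with an SD of 1.5, and differed between the diets by -1.16 (SE 0.81). CD36 and ACSL1 differed by 0.035 and 0.0049 at their brightest probes. In whole muscle, fewer cells of a type and less RNA per cell cannot be told apart.

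Over the 28 probes 17 were higher and 11 lower in HFHSD, with a median difference of 0.20, beside 13361 higher, 14561 lower and a median of -0.024 over all tested probes. An unadjusted p under 0.05 was reached by 7 of the 28, against 16.5% of all tested probes. The groups did not overlap for 4 of the 28, all of FABP5, against 10.9% of all tested probes. HFHSD lay wholly above CD for 0 of the 28, against 4.8% of all tested probes. Probes of one gene read the same RNA and are not independent.

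**Figure D1:**
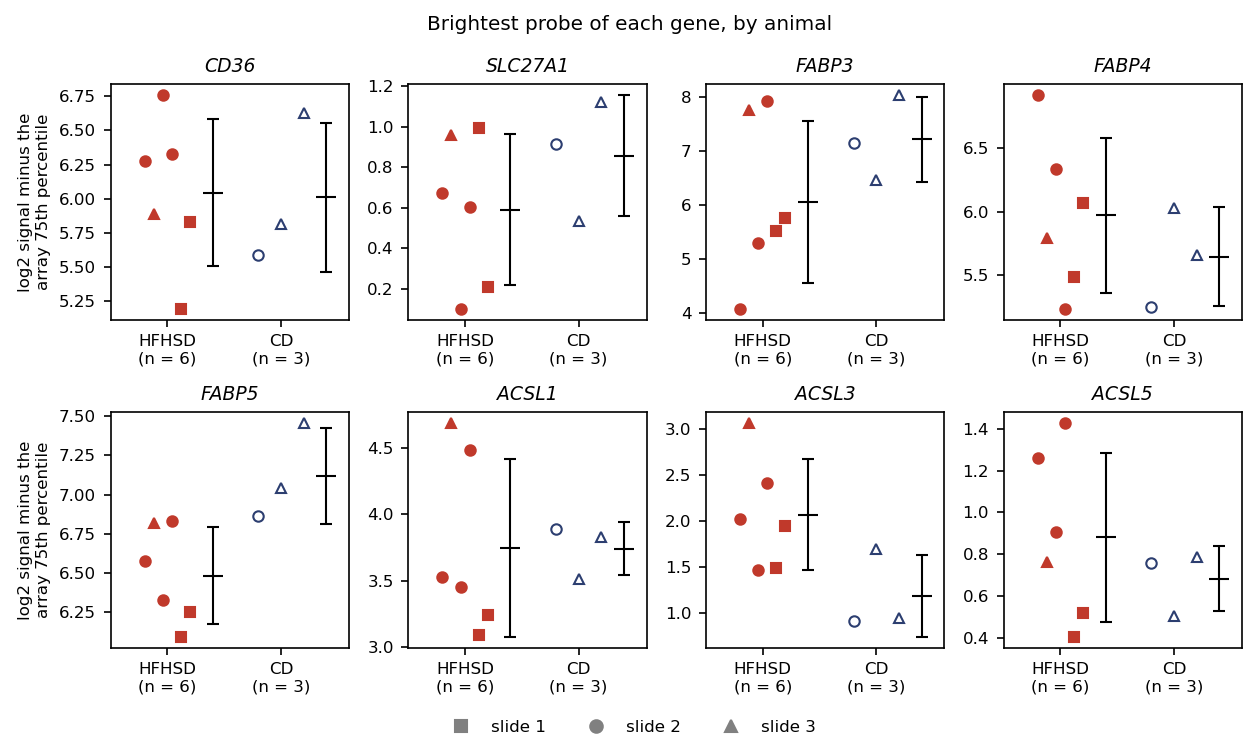
Levels of the brightest probe of each of the 8 measured genes, as log2 signal minus the array's 75th percentile, with 1 point per animal and its shape giving the slide. The bars are the mean and SD; FABP5 is the gene whose HFHSD animals (6.10 to 6.83) all sit below the CD animals (6.86 to 7.46), and FABP3 spreads widest in HFHSD (4.07 to 7.92).

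CD36 is the main fatty acid translocase of the muscle membrane. By its brightest probe CD36 ranged in HFHSD from 5.19 to 6.76 with a median of 6.08, and it was 5.58, 5.82 and 6.63 in CD 1, CD 2 and CD 3. The CD values lie inside the HFHSD range. The means were 6.04 ± 0.54 in HFHSD (SD, n = 6) and 6.01 ± 0.55 in CD (SD, n = 3), a difference of 0.035 (SE 0.35, limma adjusted p = 0.980). The 95% confidence interval runs from 0.593-fold to 1.77-fold. The other 3 probes were higher in HFHSD by 0.21, 0.22 and 0.33 without passing, with adjusted p between 0.638 and 0.769. The difference at the brightest probe was 0.87 within slide 2 and -0.33 within slide 3. The genes most like CD36 were JAK1, a kinase of cytokine receptors (Pearson r = 0.889 over the 9 arrays), ARPP19, a phosphatase inhibitor (0.883), and GADD45A, a stress response protein (0.880).

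SLC27A1, also called FATP1, is the transport protein that muscle shares with fat. By its brightest probe SLC27A1 ranged in HFHSD from 0.10 to 1.0 with a median of 0.64, against 0.92, 0.53 and 1.12 in the CD animals, so the groups overlap. The difference was -0.27 (SE 0.26, limma adjusted p = 0.685). Both other probes were near background, which they cleared on 4 and 5 of the 6 HFHSD arrays and on 2 of the 3 CD arrays. They differed by -0.30 and -0.14. The 3 probes agreed poorly from array to array, with correlations of 0.379 to 0.649 over the 9 arrays, whereas the FABP5 probes had correlations of 0.965 to 0.993 and the FABP3 probes of 0.993 to 0.998. The genes most like SLC27A1 were MYRIP, a myosin-binding adaptor (Pearson r = 0.830 over the 9 arrays), IFNG, interferon gamma (0.806), and HYAL1, a hyaluronidase (0.805).

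FABP3, the heart and muscle form, is the binding protein that supplies fatty acids to mitochondria in muscle fibres. FABP3 was 7.92 in HFHSD 4 and 7.75 in HFHSD 2, and 5.76, 5.50, 5.30 and 4.07 in HFHSD 6, HFHSD 5, HFHSD 3 and HFHSD 1. In CD 3, CD 1 and CD 2 it was 8.03, 7.14 and 6.45. Of the 6 HFHSD animals 4 lie below all CD animals and the other two lie near the highest of them. HFHSD averaged 6.05 ± 1.5 (SD, n = 6) and CD 7.21 ± 0.79 (SD, n = 3), a difference of -1.16 (SE 0.81, limma adjusted p = 0.543). The interval runs from 0.128-fold to 1.57-fold, so these arrays do not settle even large differences of FABP3. Its SD in HFHSD was above that of 97.5% of tested probes, and in CD above that of 91.1%. Both other FABP3 probes differed by -1.03 and -0.99.

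HFHSD 4 and HFHSD 2, the HFHSD animals with the highest FABP3, were hybridised on different slides. Within slide 2 FABP3 differed by -1.38 and within slide 3 by 0.51, and a fit that blocked on slide gave -0.49. The named genes most like FABP3 over the 9 arrays were ENG, an endothelial coreceptor of TGF-beta (Pearson r = 0.964), ATP5O, a subunit of ATP synthase (0.954), and MAPK12, a p38 kinase of muscle (0.953). They were the closest of 2612 genes searched, as a description, and each was lower in HFHSD on average without passing.

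FABP4, the adipocyte form, carries fatty acids in fat cells and is also made by capillary endothelium and macrophages. By its brightest probe FABP4 ranged in HFHSD from 5.23 to 6.92 with a median of 5.93, against 5.25, 6.03 and 5.66 in the CD animals. The CD values lie inside the HFHSD range. The difference was 0.32 (SE 0.36, limma adjusted p = 0.737), with an interval from 0.715-fold to 2.19-fold. Within slide 2, where CD 1 is the only CD array, it was 0.91, and within slide 3 it was -0.054. Without CD 1 it was 0.13. By the brightest probes the extremes of FABP4 among the HFHSD animals were those of FABP3 turned round. HFHSD 1 was highest in FABP4 and lowest in FABP3, and HFHSD 4 was lowest in FABP4 and highest in FABP3. This did not hold at every FABP4 probe: the dimmest was highest in HFHSD 3 (-0.09) and lowest in HFHSD 5 (-2.45). Of the 6 FABP4 probes other than the brightest, 5 differed by 0.39 to 0.58.

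The dimmest FABP4 probe had the smallest adjusted p of the 28. It ranged in HFHSD from -2.45 to -0.09 with a median of -0.67, against -3.76, -1.99 and -2.19 in the CD animals. HFHSD 5 alone lay within the CD range. The difference was 1.77 (SE 0.55, limma adjusted p = 0.141). The probe cleared background on 6 of 6 HFHSD arrays and 2 of 3 CD arrays. Without CD 1 the difference was 1.21, and with normexp and percentile scaling it was 0.32.

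Fat cells within the muscle are another source of FABP4. Of 14 adipocyte markers 11 were measured, and 8 had a higher mean in HFHSD (median difference 1.01 over the 11). Of all 2613 named genes measured by their brightest probe, 1109 were higher and 1504 lower, with a median of -0.085, and 0.995% passed. CIDEA, a lipid droplet protein of fat cells, was the marker that passed by its brightest probe, at 1.49 (SE 0.28, limma adjusted p = 0.0378). For TUSC5, another of these markers, 1 of 2 probes passed, but its brightest differed by 0.33 (SE 0.48, limma adjusted p = 0.808). The markers' summed level, taken in the same way, was 398 to 670 in HFHSD and 467 to 813 in CD, most of it from GPD1, a glycerol phosphate enzyme that muscle also makes. Without GPD1 it was 66.0 to 251 in HFHSD and 43.5 to 81.6 in CD, most of it from LIPE, the hormone-sensitive lipase. Without GPD1 and LIPE, both left out after their levels were seen, it was 3.70 to 13.8 in HFHSD and 3.60 to 35.2 in CD. The highest array was CD 1, where PCK1, an enzyme of glyceride synthesis, was at 5.02. In CD 2 and CD 3 this sum was 3.60 and 4.61. Among single markers ADIPOQ was higher in HFHSD by 2.47 (SE 0.71, limma adjusted p = 0.113) without passing. CIDEC was higher by 2.06 (SE 0.59, limma adjusted p = 0.115), also without passing. ADIPOQ in HFHSD 4 (-0.94) lay within the CD range of -1.25 to -0.72. The markers with a lower mean in HFHSD were PCK1 (-1.75), RETN (-0.77) and GPD1 (-0.24). PLIN1, a lipid droplet coat of fat cells, cleared background on 5 of 6 HFHSD arrays and on 0 of 3 CD arrays, but its level in CD 1 (-3.92) lay above those in HFHSD 4 and HFHSD 5 (-5.87 and -4.18) and no fold above 1 is bounded (limma adjusted p = 0.286). Whether fat cells contribute to the FABP4 values was not tested.

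The FABP4 pattern was closest to AKAP12, a kinase scaffold (Pearson r = 0.946 over the 9 arrays), ACKR1, a chemokine receptor of venules and red cells (0.916), and FHL5 (0.900). Of 5 measured endothelial markers 0 passed and their median difference was 0.00086. Their summed level was 23.2 to 39.3 in HFHSD and 30.6 to 32.5 in CD. Among 8 measured macrophage markers 7 were lower in HFHSD, beside 1504 of all 2613 named genes. FCGR3A, an immunoglobulin receptor, passed as higher, at 1.19 (SE 0.21, limma adjusted p = 0.0338), where 0.995% of all named genes passed. Neither CIDEA nor FCGR3A passed with slide as a fixed block. With each of the 9 animals left out in turn CIDEA passed in 1 case (without HFHSD 4) and FCGR3A in 0, with limma adjusted p between 0.0361 and 0.194 for CIDEA and between 0.0515 and 0.191 for FCGR3A. The summed level of the macrophage markers was 14.1 to 34.0 in HFHSD and 19.4 to 32.8 in CD. All 4 measured smooth muscle markers had a lower mean in HFHSD (median -0.62). Of these DES is also counted among the muscle fibre markers. The 4 fibroblast markers had a median of -0.084, 0 of either list passed, and the 7 erythrocyte markers had 0 named probes. The part of these cells in FABP4, FABP5 and CD36 was not tested.

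FABP5, the epidermal form, binds fatty acids in skin, macrophages and endothelium. FABP5 was 6.58, 6.82, 6.33, 6.83, 6.10 and 6.26 in HFHSD 1 to HFHSD 6, against 6.86, 7.04 and 7.46 in CD 1, CD 2 and CD 3. Every HFHSD animal lies below every CD animal, though HFHSD 4 and CD 1 nearly touch. HFHSD averaged 6.48 ± 0.31 (SD, n = 6) and CD 7.12 ± 0.30 (SD, n = 3). The difference was -0.635 (SE 0.23, limma adjusted p = 0.207), or 0.644-fold with an interval from 0.449-fold to 0.924-fold before adjustment for the number of probes. The other 3 probes differed by -0.61, -0.52 and -0.62, and their groups did not overlap either, though barely so at the probe with -0.52. HFHSD below CD without overlap was found for 6.11% of all tested probes.

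The size of the FABP5 difference varied with the slide and with the processing. HFHSD 5 and HFHSD 6 of slide 1 had the lowest FABP5 of the 9 animals, as they did for 13.8% of all tested probes. Within slide 2 the difference was -0.28 and within slide 3 -0.43, with slide as a fixed block it was -0.35 (limma adjusted p = 0.400), and without slide 1 it was -0.48. With normexp and percentile scaling it was -0.21, where the median of all tested probes was -0.17, so relative to that median FABP5 differed by -0.033. With normexp and quantile normalisation it was -0.58 (limma adjusted p = 0.136), close to the reported value. The genes most like FABP5 were TMEM161B (Pearson r = 0.974 over the 9 arrays), ZNF389 (0.968) and SLC7A1, a cationic amino acid transporter (0.956).

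**Figure D2:**
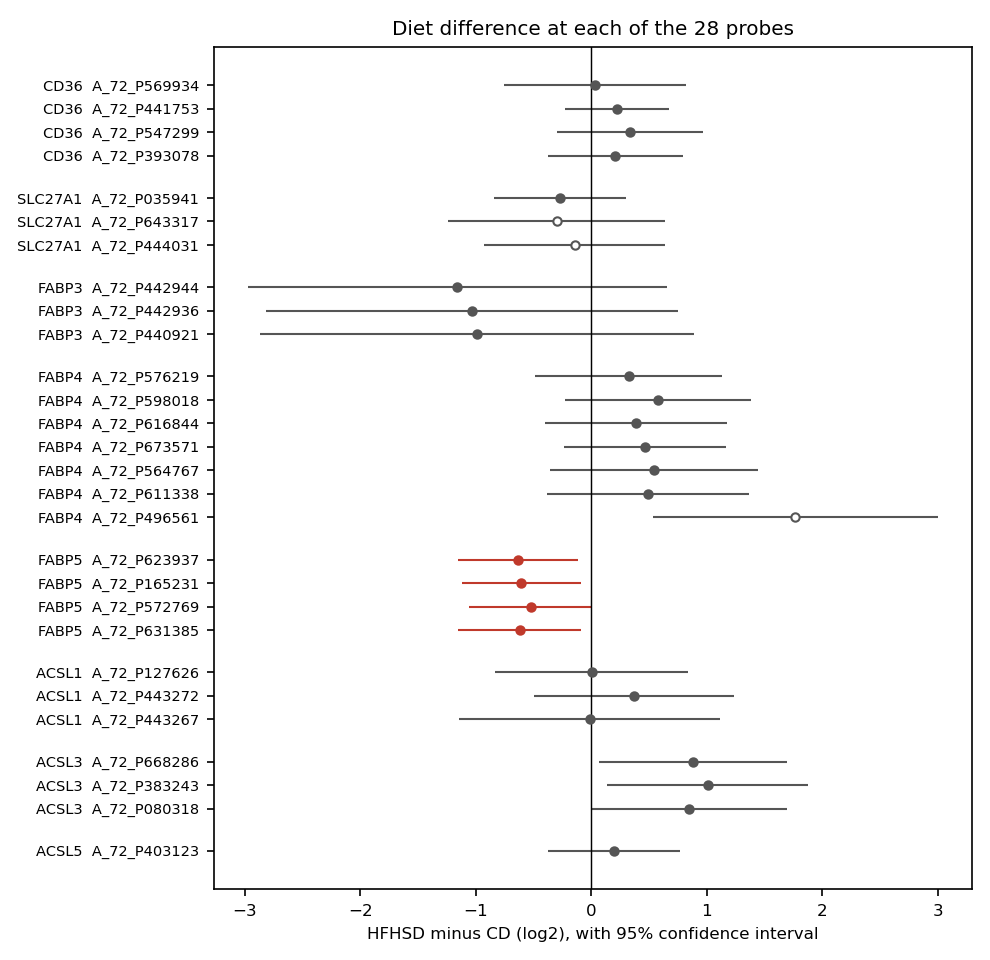
Difference of HFHSD minus CD in log2 at each of the 28 probes, with its 95% confidence interval from limma, unadjusted for the number of probes. Red marks the 4 FABP5 probes, whose groups do not overlap, and open points mark the 3 probes that were not well above background on every array; the FABP4 probes run from 0.32 to 1.77 and the FABP3 intervals are the widest.

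ACSL1 is the main acyl-CoA synthetase of muscle and in mice directs fatty acids toward oxidation. ACSL1 was 4.69 in HFHSD 2 and 4.48 in HFHSD 4, and between 3.09 and 3.53 in the other 4 HFHSD animals. It was 3.89, 3.51 and 3.83 in the CD animals, which lie in the gap or at its lower edge. HFHSD averaged 3.75 ± 0.67 (SD, n = 6) and CD 3.74 ± 0.20 (SD, n = 3), a difference of 0.0049 (SE 0.37, limma adjusted p = 0.997) with an interval from 0.563-fold to 1.79-fold. The same pair of HFHSD animals was the highest in FABP3. One dimmer ACSL1 probe differed by 0.37 and the other by -0.011. The genes most like ACSL1 were MYOZ2, a sarcomere protein of slow fibres (Pearson r = 0.931 over the 9 arrays), DECR1, an enzyme of unsaturated fatty acid oxidation (0.925), and LDHB, the heart form of lactate dehydrogenase (0.918).

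ACSL3 sits on the endoplasmic reticulum and on lipid droplets, where it activates fatty acids for lipid synthesis. ACSL3 was 3.07 in HFHSD 2, 2.42 in HFHSD 4, 2.02 in HFHSD 1, 1.94 in HFHSD 6, 1.5 in HFHSD 5 and 1.48 in HFHSD 3. In CD 2 it was 1.70, and in CD 1 and CD 3 it was 0.92 and 0.95. Only CD 2 reaches into the HFHSD range. HFHSD averaged 2.07 ± 0.60 (SD, n = 6) and CD 1.19 ± 0.44 (SD, n = 3), a difference of 0.88 (SE 0.37, limma adjusted p = 0.266). The interval runs from 1.05-fold to 3.24-fold before adjustment. Both other probes differed by 1.01 (limma adjusted p = 0.231) and 0.85 (limma adjusted p = 0.301), and the 3 probes had correlations of 0.934 to 0.992 over the 9 arrays.

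ACSL3 was higher in HFHSD within both slides that held both diets, by 1.05 within slide 2 and 1.74 within slide 3. The first value rests on CD 1 alone for CD, and the second on HFHSD 2 alone for HFHSD. Blocking on slide gave a difference of 1.38 (SE 0.34, limma adjusted p = 0.111). Over the alternatives run it stayed between 0.68 and 1.38, with adjusted p between 0.111 and 0.610. The genes most like ACSL3 were ACADL, a long-chain acyl-CoA dehydrogenase (Pearson r = 0.922 over the 9 arrays), TSHZ2 (0.899) and SEMA6C, a semaphorin (0.897).

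ACSL5, found on mitochondria and the endoplasmic reticulum, had 1 probe. ACSL5 ranged in HFHSD from 0.40 to 1.43 with a median of 0.84, against 0.76, 0.50 and 0.79 in the CD animals, so the groups overlap. The difference was 0.20 (SE 0.26, limma adjusted p = 0.778), with an interval from 0.772-fold to 1.70-fold. The 3 synthetases thus had differences of 0.0049, 0.88 and 0.20 at their brightest probes, and whether these differ from each other was not tested. The genes most like ACSL5 were RAP2B, a small GTPase (Pearson r = 0.958 over the 9 arrays), FAM8A1 (0.938) and CTSV, a cathepsin (0.919).

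**Figure D3:**
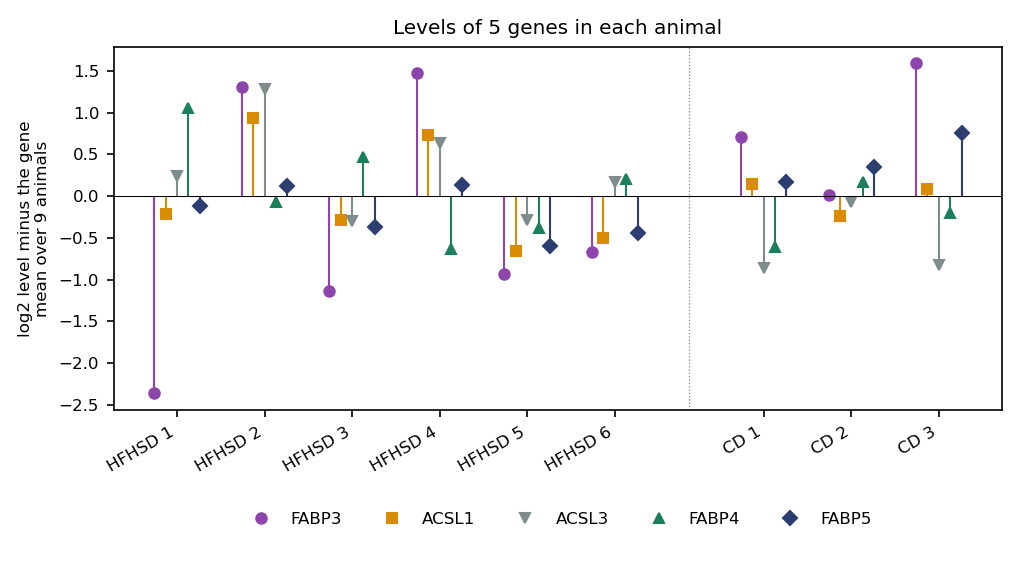
Log2 level of 5 genes in each animal, by the brightest probe, minus the gene's mean over the 9 animals. HFHSD animals are on the left and CD animals on the right. FABP3 and ACSL1 are both highest among the HFHSD animals in HFHSD 2 and HFHSD 4. FABP4 is highest in HFHSD 1 where FABP3 is lowest (4.07). FABP5 is above its mean in all 3 CD animals and also in HFHSD 2 and HFHSD 4.

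The rest of the route was read from 8 lists that hold 88 other genes, of which 35 had a probe and 31 were measured. Of these 14 were higher and 17 lower in HFHSD, 0 passed, and the median difference was -0.12. Over all 2613 named genes measured by their brightest probe, 1109 were higher and 1504 lower, 0.995% passed, and the median was -0.085. An unadjusted p under 0.05 was reached by 6 of the 31, against 18.4% of all named genes.

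Among other uptake proteins 5 of 10 were measured, 1 higher and 4 lower. CAV3, the caveolin of muscle fibres, differed by -0.68 (SE 0.29, limma adjusted p = 0.275), CAV1, the caveolin of endothelium and fat cells, by -0.59 (SE 0.26, limma adjusted p = 0.301), and GOT2, a mitochondrial transaminase also described as a membrane fatty acid binder, by -0.47. Among other binding proteins 3 of 6 were measured. PMP2, a binding protein of myelin, differed by 1.24 (SE 0.63, limma adjusted p = 0.371). It cleared background on 5 of 6 HFHSD arrays and on 0 of 3 CD arrays, and its bound by the means alone was 1.88-fold. Its level in CD 1 (-2.91) lay above those in HFHSD 3, HFHSD 4 and HFHSD 6 (-3.91, -3.14 and -3.55). FABP1, the liver form, differed by 0.74 with 4 of 6 HFHSD arrays and 1 of 3 CD arrays above background, and FABP6, the ileal form, by -2.26 with 3 of 6 and 2 of 3. The FABP6 difference rested on CD 1, at 1.6 against -3.75 and -4.03 in CD 2 and CD 3, and without CD 1 it was -0.42 (SE 0.38, limma adjusted p = 0.716).

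Among other synthetases 2 of 15 were measured: ACSS2, which activates acetate, differed by 0.42, and ACSL4, which prefers arachidonic acid, by 0.24. Acyl-CoA binding proteins had 3 of 7 measured. ACBD3 differed by -0.56 and DBI, the main acyl-CoA binding protein, by -0.17. SCP2, a sterol carrier, differed by 0.80 (SE 0.33, limma adjusted p = 0.258). It cleared background on 4 of 6 HFHSD arrays and on 0 of 3 CD arrays, and its bound by the means alone was 1.04-fold. Its level in CD 1 (-3.37) lay above those in HFHSD 1, HFHSD 3, HFHSD 5 and HFHSD 6 (-3.58, -3.39, -3.51 and -3.54). Such bounds set the HFHSD mean against the lowest signal that cleared background on the CD arrays, or the probe's own where higher. They take no account of the spread between animals, so they are not a smallest increase. The 11 acyl-CoA thioesterases had 0 named probes. In the carnitine shuttle, which takes fatty acids into mitochondria, 5 of 8 genes were measured with a median of -0.11. CPT1B, its muscle gatekeeper, differed by -0.43 (SE 0.28, limma adjusted p = 0.513), CROT by -0.29 and CPT1A by 0.27.

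For vascular supply 4 of 14 genes were measured, 2 in each direction. ANGPTL4, an inhibitor of lipoprotein lipase, differed by -0.17, FLT1, a receptor of VEGFB, by -0.12, and LPL, the lipase itself, by 0.12. Of 17 regulators 9 were measured, 4 higher and 5 lower. RXRB, a partner of the PPAR receptors, differed by -0.99 (SE 0.29, limma adjusted p = 0.119), PPARG, the receptor that drives FABP4 and CD36 in fat cells, by 0.96 (SE 0.28, limma adjusted p = 0.119), and KLF15, a factor of muscle lipid use, by -1.15 (SE 0.37, limma adjusted p = 0.157). PPARG was -0.32 to 1.04 in HFHSD, with HFHSD 4 the lowest, and -0.60 to -0.44 in CD.

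**Figure D4:**
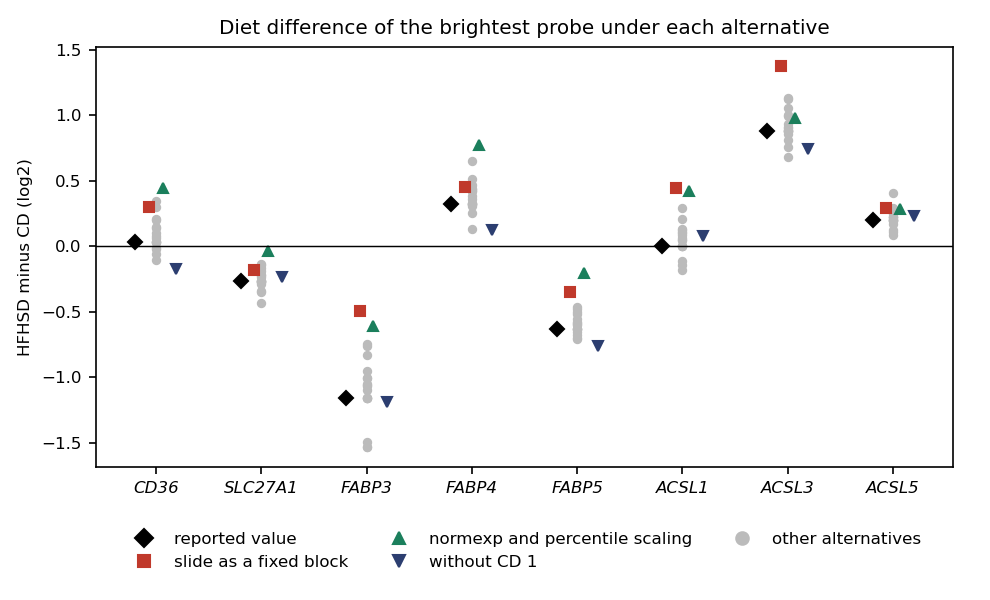
Difference of HFHSD minus CD in log2 at the brightest probe of each gene, as reported and under each alternative way of processing the arrays. FABP3, FABP5 and SLC27A1 stay below 0 and FABP4, ACSL3 and ACSL5 above 0 in every alternative run, while CD36 and ACSL1 lie on both sides of 0.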

How the data were processed

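Muscle RNA of 9 minipigs was measured on 1-colour arrays. Per the file headers, the authors extracted spot intensity values with Agilent Feature Extraction 10.7.3.1, which subtracts background and detrends within each array. The deposited series table holds the same intensity values, with 0 spots differing, so it is linear and uncentred (column medians 13.0 to 40.0). Arrays were grouped by the diet label, and replicate numbers follow accession order and only name animals.

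Control and outlier spots were left out, 22 probes were dropped because some array had no usable spot, and spots of a probe were averaged. The log2 of the processed signal, less each array's 75th percentile, was tested with limma 3.58.1 in R 4.3.3 (lmFit and eBayes, two-sided, no covariates), on 27922 probes well above background on at least 3 arrays, with Benjamini-Hochberg adjustment. A gene is represented by its brightest probe; 6891 probes were named through the Sscrofa11.1 RefSeq table, used for names only, and 2 with conflicting names were left unnamed. The scanner files lack a mean signal, so normexp (offset 50) used the median signal and background.

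Named besides the 9 genes are, of each pathway list, up to 3 genes with the smallest p, of each cell type list those that passed or otherwise up to 3 of the highest level, and the 3 genes most correlated with each. Genes outside this rule are PLIN1, GPD1, LIPE, PCK1, RETN, TUSC5, ADIPOQ, CIDEC, MYH7 and ATP2A2, chosen after their values were seen. The members and lists were chosen with earlier results of these data known. The fit was run on simulated data with independent noise and no slide effect, which checks the code and does not bear on the slides here. Alternatives were other scaling, background correction, filters, slide as a block, a variance trend, the mean of a gene's probes, and each array left out; leaving out slide 1, and each array for the list genes, was added after seeing the data. The number of arrays limits the precision.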

Additional observations from a re-analysis of the deposited data

How the results depend on the processing

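None of the 28 probes passed in any of the alternatives in which it was tested, 19 for 25 probes and 18 for the 3 dim probes of FABP4 and SLC27A1, which the filter on all 9 arrays removed. At the brightest probe FABP3, FABP5 and SLC27A1 stayed lower and FABP4, ACSL3 and ACSL5 higher in HFHSD in every alternative run. CD36 ran from -0.18 to 0.34 and ACSL1 from -0.18 to 0.14 when single animals were left out. CD36 was -0.18 without CD 1, -0.062 without CD 2, -0.011 without HFHSD 1, -0.11 without HFHSD 3 and -0.022 without HFHSD 4. ACSL1 was -0.11 without CD 2, -0.18 without HFHSD 2 and -0.14 without HFHSD 4. With normexp and percentile scaling CD36 was 0.44, ACSL1 0.42, FABP4 0.78, FABP3 -0.61 and SLC27A1 -0.038; relative to the median of all probes in that setting SLC27A1 turned to 0.14. Blocking on slide gave 0.44 for ACSL1 and 0.30 for CD36. ACSL5 has 1 probe, so the mean of its probes was not run.

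The count of all probes that passed was 344, and it was 88 with normexp and percentile scaling, 856 with normexp and quantile normalisation, 66 without a filter on dim probes, 736 for probes well above background on all arrays, 84 and 677 with slide as a fixed and a random block, 612 with a variance trend, and 57 without slide 1. Leaving out single animals gave 25 (without CD 3) to 325, with 32 without CD 1, 75 without HFHSD 3, 87 without CD 2, 93 without HFHSD 6, 99 without HFHSD 2 and 161 without HFHSD 5. In the pathway and cell type lists 2 genes passed by their brightest probe, against 1 with normexp and percentile scaling, 0 with slide as a fixed block and 0 without a filter. The cause was not tested.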

Other observations

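Values of 2 slow fibre genes are given beside the FABP3 values of the HFHSD animals, both chosen after their values were seen. ATP2A2, the calcium pump of slow and cardiac muscle, was 6.39 in HFHSD 4 and 6.25 in HFHSD 2, between 3.77 and 4.80 in the other 4 HFHSD animals, and 5.33, 4.73 and 5.16 in CD 1, CD 2 and CD 3. MYH7, the slow myosin, was 8.89, 10.38, 9.83, 10.40, 10.25 and 10.02 in HFHSD 1 to HFHSD 6, against 10.53, 9.77 and 10.24 in the CD animals. It was lowest in HFHSD 1, as FABP3 was, but lacked the gap that set HFHSD 2 and HFHSD 4 apart in FABP3. Neither gene passed between the diets: ATP2A2 differed by -0.022 (SE 0.56, limma adjusted p = 0.992) and MYH7 by -0.22 (SE 0.35, limma adjusted p = 0.821). The part of fibre type or of the place of sampling in the FABP3 and ACSL1 values was not tested.

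At 4 of the 8 brightest probes (CD36, FABP5, ACSL1 and ACSL5) HFHSD 5 and HFHSD 6, the arrays of slide 1, were the lowest of the HFHSD arrays. Over all 28 probes this held for 10, or 35.7%, against 21.4% of all tested probes. Slide 1 held no CD array, so its slide, scan day and animals cannot be told apart.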
